A study of Homo sapiens with 16 samples.

Results

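The genes described here are fibronectin (FN1) and 9 matricellular or related matrix proteins, SPARC, THBS1, THBS2, TNC, TGFBI, POSTN, SPP1, FBN1 and SPOCK1, which make up 10 of the 39007 gene symbols of the deposited table. They were selected because FN1 and SPARC were among the genes with the lowest values at P15 relative to P0. Every comparison of these genes with P15 is therefore a description. Its p-values are not given, and nothing is read from which members pass the limits for a call there. The P0 libraries also entered this selection, so comparisons of these genes with P0 share libraries with it. RNA was sequenced from T24 cells, an established human bladder cancer line, and from the GRC1 line selected from them by repeated exposure to gemcitabine, a deoxycytidine analog that stops DNA synthesis. There were 4 libraries each at each of 4 phases, P0 (parental T24 cells not put through the selection), P3 (early), P7 (intermediate) and P15 (late), where the number is the number of rounds of gemcitabine exposure and regrowth. All libraries came from cells grown in DMEM with serum, and GRC1 is 1 selected line, so a phase cannot be told apart from the history of that line. The titles of all libraries carry the letters NT, which the labels do not explain. The methods do not say whether gemcitabine was present when the RNA was taken. The labels do not say whether the 4 libraries of a phase came from separate cultures, so the p-values below measure the spread between these libraries, which may be technical.

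Matricellular proteins are secreted into the extracellular matrix but serve mainly to change how cells attach to it and respond to growth factors, rather than to bear load. Fibronectin is a large adhesive glycoprotein that cells assemble into fibrils through integrins, and collagens, fibrillin microfibrils, tenascin and thrombospondins are laid down on or bound to this network. In epithelial cancers these genes are often read as a mesenchymal or stromal program, and many respond to transforming growth factor beta.

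The 10 genes lie on 7 chromosomes of GRCh38. FN1 is on chromosome 2 (215360440 to 215436073, minus strand), SPARC on chromosome 5 (151661096 to 151686975, minus strand), TGFBI on chromosome 5 (136028988 to 136063818, plus strand) and SPOCK1 on chromosome 5 (136975298 to 137598379, minus strand). THBS1 (39581079 to 39599466, plus strand) and FBN1 (48408313 to 48645721, minus strand) are on chromosome 15. THBS2 is on chromosome 6 (169215780 to 169254050), TNC on chromosome 9 (115019575 to 115118207) and POSTN on chromosome 13 (37562583 to 37598844), all on the minus strand. SPP1 is on the plus strand of chromosome 4 (87975667 to 87983532). All are annotated as protein coding. FN1, TGFBI, POSTN, FBN1 and SPOCK1 share no exon base with another annotated gene. SPARC, THBS1, THBS2, TNC and SPP1 share exon bases with genes of the opposite strand, and whether the counting used strand is not stated.

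Promoters of 5 members are printed because these genes cover the range of patterns below, from the lowest values at P15 (FN1, SPARC, TGFBI) through little change (THBS1) to presence at P15 (POSTN). They are RefSeq sequences (GRCh38.p14) of up to 250 bases before the start of the gene, cut where the annotated span of the gene begins, written 5′ to 3′ on the strand of the gene. Capitals mark matches on either strand, where the CRE was searched as TGACGTCA, the AP-1 motif as TGANTCA, the GC box as GGGCGG, the TATA box as TATAAA and the TEAD motif as GGAATG.
FN1, chr2:215436074-215436318: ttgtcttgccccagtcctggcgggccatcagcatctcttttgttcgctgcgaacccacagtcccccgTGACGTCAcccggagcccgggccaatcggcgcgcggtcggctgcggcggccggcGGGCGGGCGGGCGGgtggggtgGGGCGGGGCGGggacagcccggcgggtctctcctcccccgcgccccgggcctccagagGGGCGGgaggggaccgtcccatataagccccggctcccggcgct
SPARC, chr5:151686976-151687165: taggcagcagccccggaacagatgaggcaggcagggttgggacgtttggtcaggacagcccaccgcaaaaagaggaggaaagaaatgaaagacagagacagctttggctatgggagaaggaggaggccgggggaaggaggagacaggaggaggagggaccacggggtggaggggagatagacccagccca
TGFBI, chr5:136028738-136028987: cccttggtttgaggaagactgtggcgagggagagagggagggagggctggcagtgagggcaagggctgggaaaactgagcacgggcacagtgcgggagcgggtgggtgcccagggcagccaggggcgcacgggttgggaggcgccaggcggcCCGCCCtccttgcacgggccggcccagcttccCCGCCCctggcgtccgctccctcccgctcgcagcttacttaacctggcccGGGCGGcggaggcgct
THBS1, chr15:39580829-39581078: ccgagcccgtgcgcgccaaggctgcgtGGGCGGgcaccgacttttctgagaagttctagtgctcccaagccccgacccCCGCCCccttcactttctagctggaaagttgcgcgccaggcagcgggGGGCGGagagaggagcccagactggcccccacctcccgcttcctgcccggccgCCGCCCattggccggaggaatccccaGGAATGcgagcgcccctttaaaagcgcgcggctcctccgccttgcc
POSTN, chr13:37598845-37599018: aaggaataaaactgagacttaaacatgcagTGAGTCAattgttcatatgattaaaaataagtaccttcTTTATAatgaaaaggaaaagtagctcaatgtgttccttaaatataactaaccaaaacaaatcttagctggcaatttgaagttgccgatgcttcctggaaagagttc

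The 250-base windows were searched for all members but SPOCK1, which has no entry. Positions count back from the end of this window, the RefSeq start. That start lies 5, 60 and 76 bases inside the annotated span of FN1, SPARC and POSTN, so the printed sequences end that much earlier. The CRE letters, 183 to 176 bases before the start of FN1, were found in FN1 and in no other of the 9 members, and in 1.65% of all 35116 promoters. FN1 also held 6 GC box matches, some of which overlap each other, and its window was 76.4% G and C. The AP-1 letters were found in POSTN, 220 to 214 bases before the start, and in 6.57% of all promoters. GC box letters were found in 4 members (FN1, THBS1, TNC and TGFBI) and in 42.6% of all promoters, TEAD letters in 4 members (SPARC, THBS1, THBS2 and FBN1) and in 11.9%, and TATA box letters in 2 members (THBS2 and POSTN) and in 10.7%. The SPARC match and the TATAAA match of POSTN, 29 to 24 bases before the RefSeq start, lie in the parts not printed. The windows of THBS2, TNC and SPP1 also reach into the annotated span of the gene, and that of FBN1 lies wholly inside it. The matches of THBS2 and FBN1 lie inside that span. A match of letters is a description and not a binding site.

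The values are log2 of CPM plus 1, where CPM is the count of a gene scaled to the total count of its library. The lowest values of a library step by what a single count is worth, from which library totals of 33700000 to 50000000 counts were estimated, and 1 count was at most 0.0297 CPM. Genes with a mean above 1 CPM over the 16 libraries, 13249 in all, were compared between phases with limma and Benjamini-Hochberg adjustment. A gene was called where its adjusted p-value was below 0.05 and it changed 2-fold or more, which is 1 on the log2 scale. SE is the standard error of a log2 fold change. Of the members, 8 of 10 passed this filter. POSTN, with a mean of 0.989 CPM, lay just below it and SPP1, with 0.375 CPM, was further below, and both are given as values. P15 stood apart from the other phases, with 23.6% of the tested genes called against P0, compared with 4.47% for P3 and 3.37% for P7.

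FN1 had the highest CPM of all genes of the table in all 12 libraries of P0, P3 and P7, and at P15 it did not. CPM is not corrected for gene length. Its log2 values in replicates 1 to 4 were 14.57, 14.30, 14.45 and 14.47 at P0 and 13.66, 13.51, 13.62 and 13.69 at P3. They were 14.17, 14.15, 14.12 and 14.24 at P7 and 6.96, 6.79, 7.03 and 6.83 at P15. The libraries of the 4 phases did not overlap, in the order P0, P7, P3 and P15. Such separation was common. Of all tested genes, 60.1% did not overlap between P3 and P0, 52.6% between P7 and P0 and 51.9% between P7 and P3. Between P15 and P0, P3 and P7, the shares were 79.7%, 82.1% and 80.8%. In CPM this was 22391 ± 1708 (SD, n = 4 libraries) at P0, 12603 ± 676 at P3, 18441 ± 658 at P7 and 119 ± 9.32 at P15. FN1 alone took 2.02 to 2.43% of the counts of a P0 library and 0.0110 to 0.0130% of a P15 library. At P15 it was still supported by an estimated 4665 to 5080 counts per library, and its rank by level was 1592 to 1929.

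Before P15, FN1 fell and then rose in part. The first step, P3 against P0, was -0.83 on the log2 scale (SE 0.06, limma adjusted p = 3.3e-12). The P0 libraries entered the choice of FN1 and SPARC, so p-values of these genes against P0 are not independent of it. FN1 then rose by 0.55 between P3 and P7 (SE 0.06, limma adjusted p = 1e-08), and P7 remained below P0 by 0.28 (limma adjusted p = 0.00013). Each of these changes was smaller than 2-fold and was not called. Quantile normalization gives the top gene of each library the same value and so sets these differences to 0, since FN1 was the top gene in each of these libraries. Against P0, the log2 fold change at P15 was -7.55 (SE 0.06), the second lowest of the 13249 tested genes, and the mean CPM at P0 was 188 times that at P15.

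**Figure D1:**
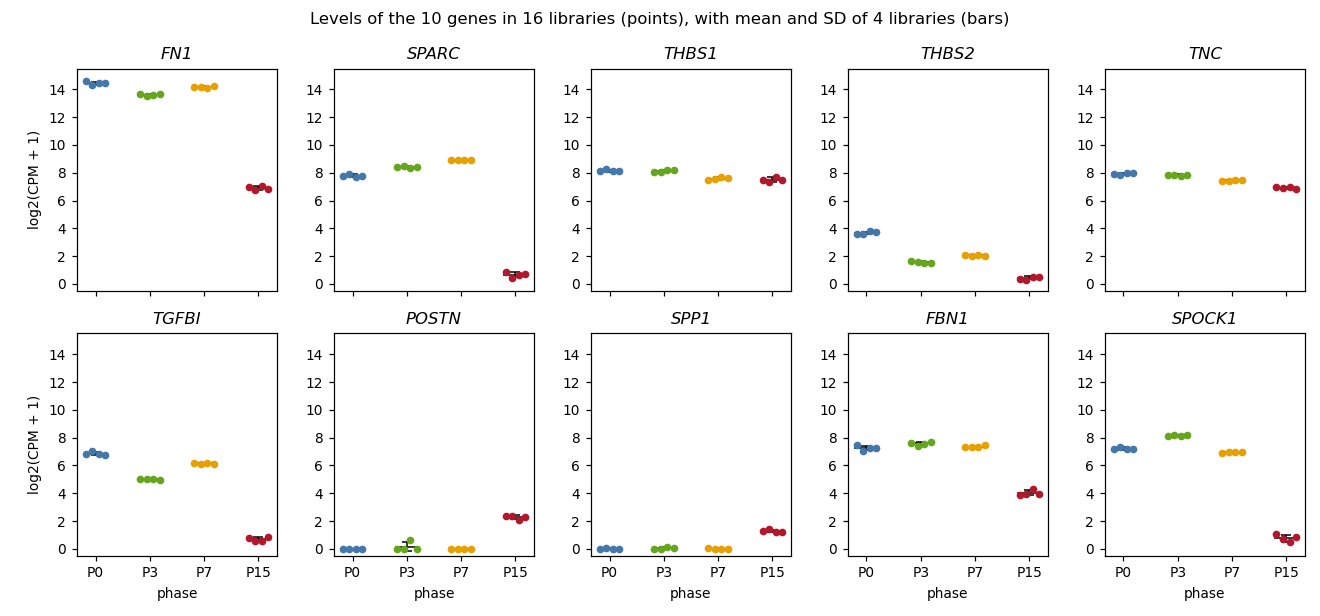
The log2(CPM + 1) value of each of the 10 genes is plotted by phase, with 1 point per library and bars for the mean and SD of 4 libraries. FN1 lies at 14.45, 13.62 and 14.17 at P0, P3 and P7 and at 6.90 at P15, while POSTN and SPP1 are near 0 until P15.

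SPARC and SPOCK1 belong to the same family of proteins with a calcium-binding extracellular domain. SPARC (osteonectin) binds collagen and is counter-adhesive, and SPOCK1 (testican 1) is a proteoglycan. SPARC was 7.79, 7.92, 7.73 and 7.74 at P0, 8.43, 8.46, 8.37 and 8.40 at P3, and 8.90, 8.91, 8.94 and 8.91 at P7. In P15 it was 0.87, 0.41, 0.64 and 0.70. The libraries of the 4 phases were separate, with P7 highest. SPARC rose by 0.62 from P0 to P3 (SE 0.06, limma adjusted p = 3.5e-09) and by a further 0.50 from P3 to P7 (SE 0.06, limma adjusted p = 2.3e-07), so that P7 lay 1.12 above P0 and was called (limma adjusted p = 9.5e-14). The mean CPM was 482 ± 5.82 at P7 (SD, n = 4 libraries) and 0.585 ± 0.206 at P15, which rests on an estimated 14 to 33 counts per library. The log2 fold change of P15 against P0 was -7.14 (SE 0.06), the third lowest of the tested genes, and that of P15 against P7 was -8.26, the lowest. Because 1 CPM is added before the logarithm, these values understate the change of a gene that falls below 1 CPM. With 0.1 CPM added, the value of SPARC against P0 was -8.39.

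SPOCK1 followed a different course before P15 and reached a like level there. It was 7.15, 7.34, 7.21 and 7.16 at P0, 8.11, 8.17, 8.14 and 8.17 at P3, and 6.88, 6.96, 6.94 and 6.96 at P7. Its P15 values were 1.08, 0.68, 0.47 and 0.85. P3 was highest, and no libraries of neighbouring phases overlapped. SPOCK1 rose by 0.93 from P0 to P3 (SE 0.08, limma adjusted p = 1.7e-10) and fell by 1.21 from P3 to P7 (SE 0.08, limma adjusted p = 3.6e-12), and the second step was called. P7 was 0.28 below P0 (limma adjusted p = 0.003). At P15 it had a log2 fold change of -6.45 against P0 (SE 0.08), rank 14 from the lowest, with 14 to 44 estimated counts per library.

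The thrombospondins THBS1 and THBS2 are secreted glycoproteins that bind cell surface receptors and inhibit angiogenesis, and THBS1 is also an activator of latent transforming growth factor beta. THBS1 was 8.14, 8.25, 8.11 and 8.10 at P0 and 8.08, 8.06, 8.23 and 8.18 at P3. It was 7.50, 7.53, 7.73 and 7.59 at P7 and 7.45, 7.30, 7.73 and 7.45 at P15. P0 overlapped P3, and P7 overlapped P15. THBS1 differed by -0.01 between P3 and P0 (SE 0.06, limma adjusted p = 0.87) and fell by 0.55 from P3 to P7 (SE 0.06, limma adjusted p = 1.1e-07). P15 lay 0.67 below P0 and 0.11 below P7, the second within the spread of the libraries.

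THBS2 had fallen by P3. It was 3.62, 3.58, 3.78 and 3.72 at P0, 1.64, 1.56, 1.53 and 1.53 at P3, 2.09, 2.04, 2.08 and 1.98 at P7, and 0.38, 0.30, 0.53 and 0.51 at P15. The 4 phases did not overlap. From P0 to P3 it changed by -2.11 on the log2 scale (SE 0.08, limma adjusted p = 7.8e-17), the largest fall among the members before P15, and it then rose by 0.48 between P3 and P7 (SE 0.08, limma adjusted p = 1.8e-05). P7 remained below P0 by 1.63 and was called (limma adjusted p = 1.6e-14). In CPM, THBS2 was 11.8 ± 0.813 at P0 (SD, n = 4 libraries), 1.96 ± 0.108 at P3, 3.14 ± 0.142 at P7 and 0.350 ± 0.101 at P15, the last from an estimated 10 to 19 counts per library.

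Tenascin C (TNC), a hexameric glycoprotein that weakens adhesion to fibronectin, was lower at P7 than at P3 and lowest at P15. It was 7.88, 7.81, 7.97 and 7.96 at P0, 7.87, 7.82, 7.79 and 7.87 at P3, 7.41, 7.41, 7.50 and 7.46 at P7, and 6.96, 6.87, 6.99 and 6.83 at P15. P0 and P3 overlapped and the other phases did not. The difference of P3 from P0 was -0.07 (SE 0.04, limma adjusted p = 0.13), and TNC fell by 0.39 from P3 to P7 (SE 0.04, limma adjusted p = 1e-08). At P15 the mean of 120 ± 6.26 CPM (SD, n = 4 libraries) compared with 239 ± 12.4 CPM at P0. The log2 fold change of -0.99 (SE 0.04) lies just short of the limit, and with 1 library left out at a time it was -1.02 to -0.96, past the limit without replicate 1 or 2 of P0 or replicate 1 or 3 of P15.

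TGFBI and POSTN (periostin) are paralogs built from fasciclin domains that bind integrins and collagen, and both are known targets of transforming growth factor beta. TGFBI was 6.84, 7.02, 6.80 and 6.77 at P0, 5.01, 5.00, 5.03 and 4.96 at P3, 6.19, 6.10, 6.19 and 6.11 at P7, and 0.81, 0.55, 0.59 and 0.85 at P15. The 4 phases were separate, in the order P0, P7, P3 and P15 that FN1 and THBS2 also had. TGFBI fell by 1.86 from P0 to P3 (SE 0.06, limma adjusted p = 1.3e-17) and rose by 1.15 from P3 to P7 (SE 0.06, limma adjusted p = 3.5e-13), and both steps were called. P7 was 0.71 below P0 (limma adjusted p = 1e-09). At P15 the log2 fold change against P0 was -6.16 (SE 0.06), rank 22 from the lowest, and the level was 0.631 ± 0.171 CPM.

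POSTN moved the other way. It was listed at 0 in the 4 libraries of P0, the 4 of P7 and 3 of P3, and it was 0.62 in replicate 3 of P3. In P15 it was 2.34, 2.35, 2.06 and 2.31, or 3.82 ± 0.439 CPM (SD, n = 4 libraries) from an estimated 114 to 178 counts per library. No P15 library overlapped another phase, and no fold change is given against phases listed at 0. The P3 library with POSTN reads also stood apart in some of the fibroblast markers and not in others. COL1A1, PDGFRA, PDGFRB and THY1 were 1.55, 0.57, 0.52 and 0.39 in it, and at most 1.48, 0.40, 0.40 and 0.20 in the other P3 libraries. FAP was 0.00 in replicate 3 and up to 0.14 in the others, and PI16 was listed at 0 in all P3 libraries. Replicate 3 held COL3A1 at 1.61, COL1A2 at 0.70, LUM at 0.57 and DCN at 0.20. The other P3 libraries held at most 0.08, 0.07, 0.00 and 0.00 of these. The part of this in its POSTN value was not tested. In the P15 libraries COL3A1 was higher, at 4.51 ± 0.08 (SD, n = 4 libraries), while COL1A2, LUM and DCN were at most 0.59, 0.26 and 0.00.

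SPP1 (osteopontin), a secreted phosphoprotein that binds CD44 and integrins, was also detected mainly at P15. It was 1.30, 1.42, 1.19 and 1.22 there, or 1.44 ± 0.176 CPM (SD, n = 4 libraries) from 46 to 72 estimated counts per library. In the other 12 libraries it was 0.00 to 0.13, at most 4 estimated counts, with 8 of them listed at 0. FBN1 (fibrillin 1), the core of microfibrils that store latent transforming growth factor beta, was 7.47, 7.07, 7.26 and 7.23 at P0, 7.64, 7.41, 7.55 and 7.72 at P3, 7.35, 7.33, 7.31 and 7.44 at P7, and 3.90, 3.95, 4.30 and 3.96 at P15. The first 3 phases overlapped and P15 was separate. FBN1 was 0.32 higher at P3 than at P0 (SE 0.08, limma adjusted p = 0.0008), and P7 did not differ detectably from P0 (0.10, SE 0.08, limma adjusted p = 0.27). From P3 to P7 it changed by -0.22 (limma adjusted p = 0.017), which did not pass 0.05 without replicate 1 or without replicate 4 of P3 (limma adjusted p = 0.05 and 0.074). At P15 its log2 fold change against P0 was -3.23 (SE 0.08), and it was still at 15.4 ± 2.21 CPM.

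Counted over the 8 tested members, 2 were called between P3 and P0, both lower (THBS2 and TGFBI), beside 4.47% of all tested genes in either direction and 2.51% lower. By the adjusted p-value alone, 6 members differed there, 3 in each direction, where 68.7% of all tested genes did. Between P7 and P0, 2 were called, SPARC higher and THBS2 lower, beside 3.37% of all tested genes, and 7 differed by the adjusted p-value alone, 1 higher and 6 lower, where 62.1% of all tested genes did. Between P7 and P3, the comparison that shares no library with the contrast that selected the genes, 2 were called, TGFBI higher and SPOCK1 lower, beside 1.84%. By the adjusted p-value alone, 8 members differed between P7 and P3, 4 in each direction, where 58.2% of all tested genes did. The median log2 fold change of the members was -0.04 between P3 and P0, -0.37 between P7 and P0 and 0.13 between P7 and P3, and over all tested genes it was -0.02, -0.02 and 0.01. P0 and P3 libraries are shared between these comparisons, and P0 libraries entered the selection of the genes.

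**Figure D2:**
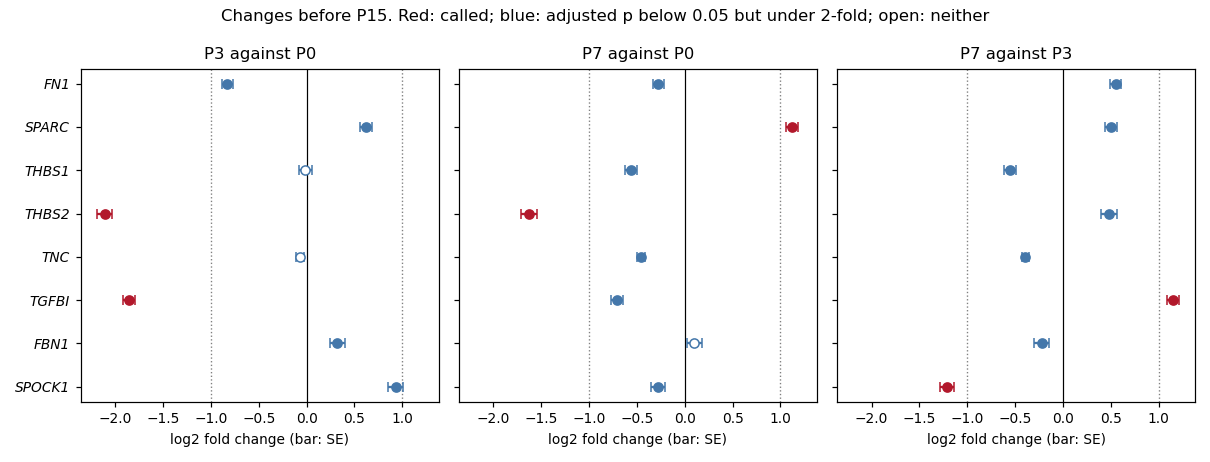
Log2 fold changes of the 8 tested members are plotted with their standard errors for P3 against P0, P7 against P0 and P7 against P3, with dotted lines at a 2-fold change. TGFBI is at -1.86, -0.71 and 1.15 and SPOCK1 at 0.93, -0.28 and -1.21, in opposite directions.

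At P15, 8 members had a lower mean than at P0 and 2 had a higher mean, and the libraries of P15 and P0 did not overlap for any of the 10, where 79.7% of all tested genes did not overlap. Of the tested members, 6 were past the limits for a call, all lower, where 23.6% of all tested genes were called in either direction and 11.5% were lower. The genes were selected on this contrast, so nothing is read from the count. The 6 ranged from -3.23 for FBN1 to -7.55 for FN1, and the median over the 8 tested members was -4.70, with 0.04 over all tested genes. The same 6 genes were past the limits against P3, where 12.2% of all tested genes were lower, and against P7, where 12.1% were. With 5 CPM added in place of 1, THBS2 was under 2-fold in both. The 10 genes together took 2.14 to 2.55% of the counts of a P0 library, 1.30 to 1.46% at P3, 1.90 to 2.06% at P7 and 0.0404 to 0.0492% at P15, most of it FN1 in the first 3 phases. In bulk RNA, fewer cells that express a gene and less RNA per cell cannot be told apart.

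**Figure D3:**
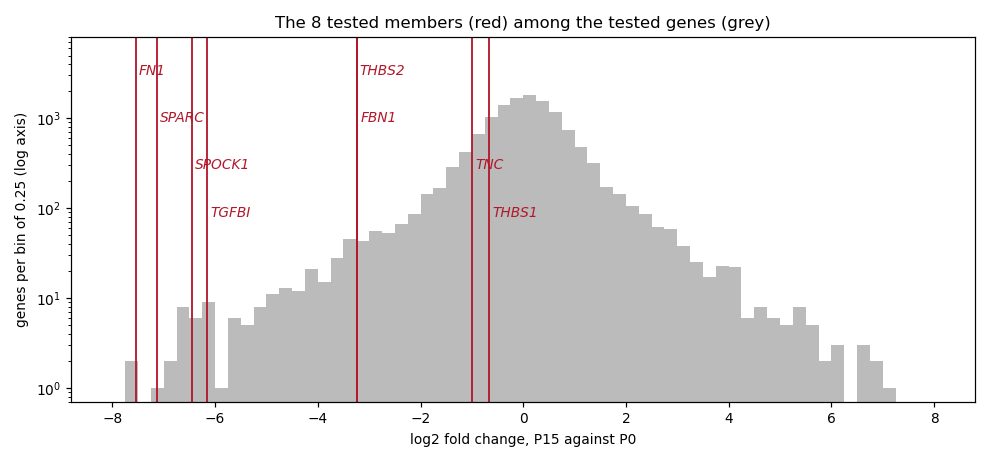
The grey histogram gives the log2 fold changes of the 13249 tested genes for P15 against P0, on a log axis of gene counts, and red lines mark the 8 tested members. FN1 and SPARC lie at the lower end, at -7.55 and -7.14, and TNC and THBS1 lie at -0.99 and -0.67, within the body of the histogram.

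Levels were compared between genes per kilobase of annotated exon. In P0, FN1 stood at 1301 ± 99.2 CPM per kb (SD, n = 4 libraries), followed by SPARC at 47.7 ± 2.97, THBS1 at 30.9 ± 1.51, TNC at 24.9 ± 1.29, SPOCK1 at 23.8 ± 1.49, TGFBI at 14.9 ± 1.21, FBN1 at 8.25 ± 0.957 and THBS2 at 1.64 ± 0.113. TNC and SPOCK1 were within 1 SD of each other. In P15, THBS1 was highest at 19.5 ± 2.52 CPM per kb, then TNC at 12.5 ± 0.653 and FN1 at 6.91 ± 0.541. FBN1 (0.832 ± 0.119) and POSTN (0.700 ± 0.0804) were close, and SPP1 was at 0.198 ± 0.0243. SPARC, SPOCK1, TGFBI and THBS2 were lowest, at 0.126 ± 0.0443, 0.117 ± 0.05, 0.0818 ± 0.0222 and 0.0486 ± 0.0141 CPM per kb. SPARC was thus the second highest member per length at P0 and at P15 it was among the 4 lowest, within 1 SD of SPOCK1. The exon length counts every annotated exon, so isoform use could shift these values.

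**Figure D4:**
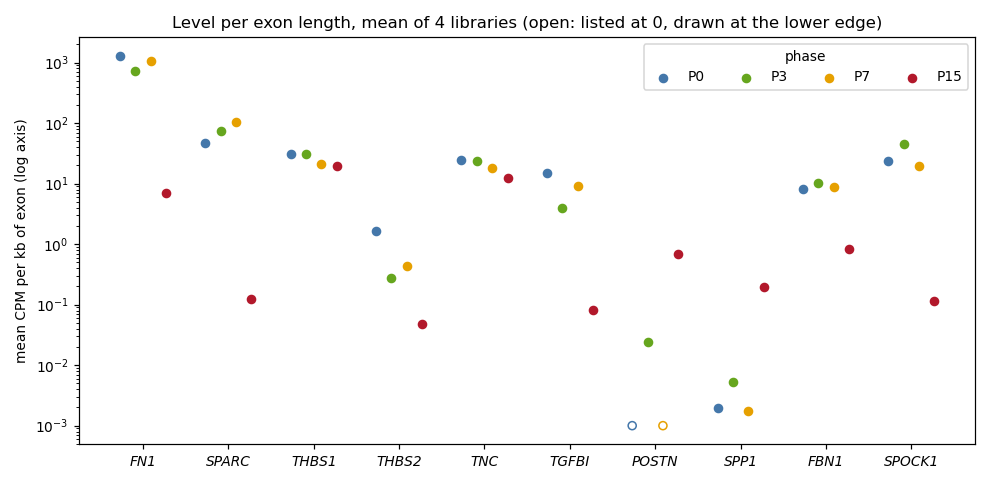
The mean CPM per kb of exon of each member is plotted on a log axis, with 1 point per phase and open points for means listed at 0. FN1 spans 1301 at P0 to 6.91 at P15, and SPARC, SPOCK1 and TGFBI span over 2 units of the log axis.

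The genes with the most similar course were found among all tested genes by the root mean square difference of log2 values over the 16 libraries, each gene centred on its P0 mean. For FN1 they were ADAMTS12 (0.14), CADM1 (0.39) and ARAP3 (0.45). ADAMTS12, a secreted metalloprotease, was 7.83 ± 0.03 at P0, 6.91 ± 0.05 at P3, 7.66 ± 0.03 at P7 and 0.15 ± 0.20 at P15 (log2, SD, n = 4 libraries). CADM1 and ARAP3 were at 0.18 and 0.05 at P15, where FN1 was at 6.90. The fall of a gene near 0 at P15 is set by its level at P0. The distance also includes the P15 libraries, on which FN1 and SPARC were selected. For SPARC they were G0S2 (0.53), ACSL5 (0.61) and SLC17A9 (0.64), which are farther from it than ADAMTS12 is from FN1. Among the members, the one nearest to SPARC was SPOCK1 (0.80, place 11 among tested genes) and the one nearest to FN1 was TGFBI (0.90, place 19). THBS1 and TNC were 0.20 apart.

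The genes around the members were read at P15 in the same way. TGFBI and SPOCK1 lie 911 kb apart on chromosome 5, and SPARC lies 14.1 Mb beyond SPOCK1. Within 1 Mb of the start of a member there were 79 other tested genes, with a median log2 fold change of -0.01 for P15 against P0, and 9 were called higher and 9 lower (11.4% lower), compared with 11.5% lower over all tested genes with a unique match in the annotation. Near TGFBI the 2 tested genes, PITX1 and SMAD5, had -0.27 and -0.11. Near SPARC 3 of 11 were called lower, with ANXA6 at -6.27. Near SPOCK1 2 of 13 were called higher and 2 lower, with EGR1 at 5.31. PITX1, SMAD5, ANXA6 and EGR1 were chosen after their values were seen.

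Other genes of the same matrix program were read from lists drawn up by function. Of 47 relatives of the members (other SPARC, thrombospondin, tenascin, CCN, fibulin, fibrillin, LTBP and proteoglycan genes), 20 were tested, and 5 were higher and 6 lower at P15 than at P0 (55% called, where 23.6% of all tested genes were). CYR61 (CCN1) and CTGF (CCN2), matricellular proteins of the CCN family, rose by 2.21 and 1.51 (SEs 0.07 and 0.09, limma adjusted p = 1.3e-19 and 1.6e-13), and LTBP4 rose by 1.48. NOV (CCN3), LTBP3 and EFEMP2 fell most, with log2 fold changes of -3.06, -2.54 and -2.08 (SEs 0.10, 0.06 and 0.08, limma adjusted p = 2.5e-19, 7.7e-22 and 1.3e-17). The median of the list was -0.27. At P3, CYR61 and CTGF were above P0 by 1.84 and 2.42, and LTBP3 and LTBP2 had fallen (-1.61 and -1.10). FSTL1, a follistatin-like relative of SPARC, was 1.40 above P0 at P3 and then below P0 at P15 (-1.07), both called. Between P3 and P0, 5 of 20 were called, where 4.47% of all tested genes were. From P3 to P7, CTGF and CYR61 fell (-1.75 and -1.56), VCAN fell (-2.22), and LTBP3 and NOV rose by 1.36 and 1.11.

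Of 21 receptors that bind these proteins, 14 were tested, and 1 was higher and 4 lower at P15 than at P0 (35.7% called, where 23.6% of all tested genes were, median -0.32). The integrin subunits ITGB8 and ITGB3 fell (-3.42 and -2.23), as did the syndecan SDC4 (-1.13), and the scavenger receptor LRP1, which takes up thrombospondin, rose by 1.15 (SEs 0.08, 0.08, 0.03 and 0.10, limma adjusted p = 3.2e-22, 1.8e-18, 2e-21 and 9.5e-11). ITGB3 was already lower at P3 than at P0 (-1.97). Of 26 genes of matrix crosslinking and processing, 19 were tested, and 3 were higher and 6 lower (47.4% called, beside the same 23.6%, median -0.13). LOX, the lysyl oxidase that crosslinks collagen and elastin, fell (-3.74), as did EMILIN2 (-3.33) and the collagen chaperone SERPINH1 (-2.48) (limma adjusted p = 1.1e-21, 2.7e-21 and 1.9e-24), while PCOLCE2, P4HA3 and PCOLCE rose by 3.40, 2.78 and 1.19. LOX had risen before, by 1.34 from P3 to P7 (limma adjusted p = 1.3e-11), and it was at 7.01 ± 0.03 at P7 and 1.32 ± 0.29 at P15 (log2, SD, n = 4 libraries). In P3, PLOD2 and P4HA1 rose by 1.40 and 1.17 and LOXL2 fell by 1.21.

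Of 16 core genes of the transforming growth factor beta pathway (ligands, receptors, SMAD proteins and their regulators), all were tested, and 2 were called at P15 against P0 (12.5%, below the 23.6% of all tested genes). The ligand TGFB2 and the coreceptor TGFBR3 fell (-2.77 and -1.34, SEs 0.09 and 0.06, limma adjusted p = 1.3e-19 and 1.2e-15). The ligands TGFB1 and TGFB3 rose by 0.60 and 0.90 (SEs 0.06 and 0.10, limma adjusted p = 3.7e-10 and 1e-08) and were not called. TGFB2 was 4.42 ± 0.13 at P0, 3.93 ± 0.13 at P3, 2.88 ± 0.12 at P7 and 1.65 ± 0.13 at P15 (log2, SD, n = 4 libraries). The signal transducer SMAD3 fell by 1.45 from P0 to P3.

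**Figure D5:**
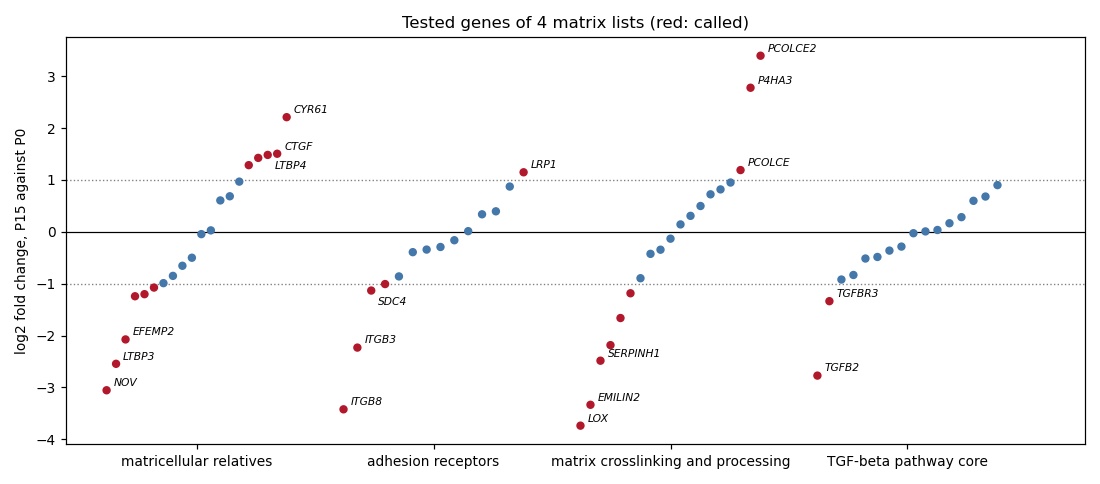
Each point is a tested gene of 1 of 4 lists, sorted within the list by its log2 fold change at P15 against P0, with called genes in red and dotted lines at a 2-fold change. The first 3 lists hold genes called in both directions, from LOX at -3.74 to PCOLCE2 at 3.40, and the pathway list holds 2 called genes, TGFB2 at -2.77 and TGFBR3 at -1.34.

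Markers of cell types were read beside these values. The libraries of P0 held 8 of 15 epithelial and urothelial markers above 1 CPM, with a summed level of 2180 to 2260 CPM, and those of P15 held 8 with 711 to 792 CPM. KRT19, KRT7 and GATA3 fell (-6.41, -6.26 and -3.93) from P0 to P15, and KRT17 rose by 3.79. UPK1B and UPK3A, which mark differentiated urothelium, were each near 0 at P0 (0.02 ± 0.04, log2, SD, n = 4 libraries). They were listed at 0 in all libraries of P3, P7 and P15. Of the other uroplakins, UPK1A was 0.10 ± 0.08 at P0 and 1.57 ± 0.18 at P15, and UPK2 was 0.87 ± 0.22 and 0.67 ± 0.13 (log2, SD, n = 4 libraries). The 10 fibroblast markers summed to 7.26 to 8.48 CPM at P0, 1.88 to 6.47 at P3, 5.57 to 6.58 at P7 and 46.6 to 51.7 at P15. COL1A1 rose by 2.05 from P0, and COL3A1 was listed at 0 at P0 and was 4.51 ± 0.08 at P15 (log2, SD, n = 4 libraries), while DCN, FAP and PI16 were listed at 0 at P15. The 9 leukocyte markers found summed to 6.22 to 8.62 CPM at P0 and 0.0851 to 0.481 at P15. CD14 was the marker above 1 CPM at P0, and PTPRC was listed at 0 at P0, P3 and P7. The 8 endothelial markers summed to 8.40 to 11.5 CPM at P0 and 0.557 to 1.23 at P15. CDH5 and TIE1 were above 1 CPM at P0, and no endothelial marker was at P15. The part of these marker changes in the values of the members was not tested.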

How the data were processed

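The data are 16 RNA-seq libraries of T24 and GRC1 cells, 4 per phase. By their methods, the authors mapped paired-end reads to GRCh38 with STAR (2.6.1a in the submitters' processing notes) and counted genes with featureCounts. What the authors deposited is log2 of CPM with 1 added, to 2 decimals, for each of 39007 symbols. The quantile normalization and median centring that the methods name are not carried by these values. The strand setting of the counting and the handling of multimapped reads are not given in the sources used here. Each column was matched to a sample by its title, and replicate numbers are those of the sample descriptions.

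These log2 values entered limma (3.58.1, under R 4.3.3) unchanged, with all 16 libraries, a mean for each phase, a variance trend and no block. The p-values were adjusted by Benjamini-Hochberg over all 13249 symbols whose mean exceeded 1 CPM. The code was first tested on artificial data. Coordinates and exon lengths come from GENCODE version 44 (GRCh38), where 12163 tested symbols (91.8%) were found. Python 3.11.15 (numpy 2.4.6, pandas 2.3.3) made the tables and matplotlib 3.10.9 the figures.

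The members, lists and alternatives were chosen with earlier results of these data known. A gene of the transforming growth factor beta list is not reported here, and the counts of that list leave it out. Named genes are the members, up to 3 called genes of each list with the largest change in each direction, and the 3 genes most similar to FN1 and to SPARC. Beyond this rule, some genes were named after their values were seen. They are single cell type markers that were not called or not tested and genes next to members (PITX1, SMAD5, ANXA6, EGR1). Genes short of a limit (SPOCK3, THBS3, TGFB1, TGFB3) were also named in this way. The effect of the filter, the pseudocount (0.1 or 5 in place of 1), quantile normalization, a shift to equal medians, replicate blocks, the variance trend, fitting 2 phases alone, the fold limit and each single library was tried.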

Additional observations from a re-analysis of the deposited data

Results flagged for a closer look

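In 38 groups of 4 libraries with unequal values (members by phase), the gap between the highest or lowest library and its nearest neighbour was compared with the range of the group, at Dixon's critical ratio for the 95% level. About 1 in 20 groups passes by chance, and 5 did. In 3 of the 5, all but 1 library were listed at 0, which gives a ratio of 1.00 by construction, so the chance rate does not apply to them. POSTN was higher in replicate 3 of P3 (ratio 1.00, value 0.62, the others listed at 0), and lower in replicate 3 of P15 (ratio 0.862, value 2.06). SPP1 was higher in replicate 2 of P0 (ratio 1.00, value 0.08) and in replicate 1 of P7 (ratio 1.00, value 0.07), each an estimated 2 counts where the other libraries were listed at 0. FBN1 was higher in replicate 3 of P15 (ratio 0.850, value 4.30). Without that library, the log2 fold change of FBN1 at P15 against P0 was -3.32.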

How the results depend on the processing

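The counts of called members, 2 in each of the comparisons among P0, P3 and P7, stayed at 2 under every alternative but the removal of the fold limit, which gave 6 for P3 against P0, 7 for P7 against P0 and 8 for P7 against P3. It also raised the counts at P15 against P0 to 18 of the matricellular relatives, 13 of the receptors, 18 of the crosslinking genes and 12 of the transforming growth factor beta genes. With each library left out in turn, these 4 counts were 12 to 13, 4 to 5, 9 to 10 and 2, where the relatives have 11 with all libraries, since SPOCK3 (-0.99) and THBS3 (0.97) lie just short of the limit and the filter was applied again. With 5 CPM added, the counts at P15 against P0 were lower, at 8 of the relatives, 4 of the receptors and 7 of the crosslinking genes. Over the member values among P0, P3 and P7, 419 of 432 recomputed values kept their direction and side of the threshold. THBS1 at P3 against P0, not distinguishable from 0, changed sign with the median shift (0.0025), without P0 replicate 2 (0.0208), without P3 replicate 1 (0.00667) and without P3 replicate 2 (0.0133), and ranged from -0.0433 to 0.0208 with each library left out. Values near 1 CPM depend on the pseudocount: with 5 CPM added, THBS2 at P15 against P0 was -1.65 in place of -3.25, and with 0.1 CPM added it was -4.75. THBS2 at P15 against P3 was -0.38 in place of -1.14 with 5 CPM added, and against P7 it was -0.60 in place of -1.62. SPOCK1 at P7 against P0 lost its call by p with 0.1 CPM added (limma adjusted p = 0.11), FBN1 at P7 against P3 also with no filter (0.096) and no variance trend (0.051), and TNC at P3 against P0 gained it without P0 replicate 2 (-0.10, limma adjusted p = 0.025). The paired analysis used the replicate number of the description, and then that of the title, as a block, and gave 2 called members in each comparison. The deviations of libraries with the same number correlated by -0.147 to 0.218 across genes (24 pairs). Pairs with different numbers were not compared, so whether libraries with the same number share a culture or preparation cannot be told. Depth limits SPARC, TGFBI, SPOCK1, THBS2, SPP1 and POSTN, each with under 100 estimated counts per library in some phase, and rounding to 2 decimals limits values near 0.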
